A study of Mus musculus with 12 samples.

Results

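The response of the medial prefrontal cortex (PFC) to an acute dose of ethanol was measured in mice without the tyrosine kinase Fyn. By their labels, 6 of the 12 arrays in the series belong to it, 3 of Fyn-null mice after ethanol (replicates 1, 2 and 3) and 3 of Fyn-null mice after saline (replicates 2, 3 and 4). The strain of the Fyn-null animals was B6;129S7-Fyn-tm1Sor/J, and the other 6 arrays are of control mice, B6129SF2/J, after the same treatments. All mice were male and 12 weeks old, had been habituated with saline injections on 3 days, and received 3 g/kg ethanol or saline intraperitoneally 4 h before death. Each array held RNA pooled from 3 mice of one genotype and treatment, so a replicate is a pool. The labels give more mice per group than the pools hold, and the methods of the study give smaller numbers than the labels. The controls and the Fyn-null mice are separate stocks, so stock and Fyn genotype cannot be told apart, and the allele is carried in the germ line and is thus not limited to the cortex.

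Fyn is a kinase of the Src family that is held at synapses, where it phosphorylates subunits of the NMDA type of glutamate receptor, and it has long been studied for its part in the behavioural response to ethanol. A high dose of ethanol in a rodent activates the stress axis, which releases corticosterone. Corticosterone acts through the glucocorticoid receptor, a transcription factor that binds glucocorticoid response elements (GREs) in DNA. In cortex, neuronal firing is mirrored within an hour by immediate early genes, which code mostly for transcription factors.

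The values are log2 RMA signals per probe set. A difference is the mean of the ethanol pools minus the mean of the saline pools on the log2 scale, so that 1 stands for a doubling. Of 45037 probe sets other than array controls, 24770 were tested after the 45% with the lowest mean were left out, and these covered 12323 genes. Called means a limma p under 0.05 after Benjamini-Hochberg adjustment, in a fit of all 12 arrays, and each gene was represented by its brightest probe set on average.

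Fyn itself has 2 probe sets on the array. The brighter one read 8.89 and 8.64 in Fyn-null saline replicates 2 and 3, while Fyn-null saline replicate 4, as labelled, had 9.45. It was 9.01, 8.75 and 8.77 in Fyn-null ethanol replicates 1, 2 and 3. The dimmer one was 7.61, 7.50 and 7.75 in the saline pools and 7.81, 7.62 and 7.62 in the ethanol pools. Neither was near the floor of the array in any Fyn-null pool, and their position relative to the disrupted part of the gene was not given, so they may check nothing. On the brighter probe set that saline replicate 4 was thus among the control pools, of which 5 ran from 9.31 to 9.70, whereas the pool labelled control saline replicate 2 had 8.74, among the Fyn-null pools. A score over 193 probe sets that separated the ethanol groups, with Fyn left out, ran from -1.03 to -0.951 in the Fyn-null ethanol pools and from 0.899 to 1.06 in the control ethanol pools. It was -1.07 and -1.10 in Fyn-null saline replicates 2 and 3. That labelled Fyn-null saline replicate 4 scored 0.344, and the one labelled control saline replicate 2 scored -0.951, each among pools of the other genotype. Labels were kept as given, and the main counts are also given without the pool labelled Fyn-null saline replicate 4.

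The dissection was checked against its markers. The excitatory neuron genes Slc17a7 (9.85 to 10.29 over the 6 Fyn-null pools), Neurod6 (8.46 to 9.34) and Tbr1 (8.06 to 8.70) were well measured. Of 12 striatal genes listed, 7 were above the filter, from Rarb (5.61 to 5.83) and Drd1 (5.67 to 6.35) to Rgs9 (7.71 to 8.17) and Tac1 (9.13 to 9.31), while Drd2 was below it (4.67 to 5.13). Of 9 blood cell genes, Alas2 (6.02 to 6.65) was above the filter, and Hba-a1 of red blood cells was at 3.02 to 3.49. None of these 8 striatal and blood cell genes was called. Of 14 excitatory neuron genes listed, 13 were tested and 0 were called in the ethanol response of Fyn-null mice, with a median difference of -0.016.

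Ethanol called 99 probe sets in Fyn-null mice, which is 0.400% of those tested. Of these, 63 rose (0.254%) and 36 fell (0.145%). At an unadjusted p under 0.05 there were 2903 (11.7%). The called differences ran from 0.42 to 1.74 for rises, and the largest fall was -1.52. A rise of 1 or more was seen in 18 probe sets and a fall of 1 or more in 2. By the probe set that stood for the gene, 41 genes rose (0.333% of genes) and 22 fell (0.179%), and 81 genes had at least 1 called probe set. The median difference over all genes tested was -0.021. All 99 called probe sets had Fyn-null groups that did not overlap, while 7.13% of all genes had ethanol pools wholly above saline pools and 11.4% wholly below.

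The number of calls depended on single pools. It was 50 (39 higher, 11 lower) without the pool labelled Fyn-null saline replicate 4, and 46 of these were among the 99. It was 75 without Fyn-null saline replicate 2, 40 without Fyn-null saline replicate 3, 46 without Fyn-null ethanol replicate 1, 35 without ethanol replicate 2 and 33 without ethanol replicate 3. Leaving out a control pool gave 67 to 145. A further quantile normalization gave 155 calls, 82 higher and 73 lower. In each of these settings, all 99 probe sets kept their sign. When a Fyn-null pool is left out, this is given by their separated groups, and control pools do not enter the difference. With genotype as an additive term, all 6 ethanol pools were set against all 6 saline pools. This fit called 1686 probe sets (6.81%), and all 99 were among them. It includes the 6 Fyn-null arrays on which the 99 were called, so it is not a separate check of them. With the RNA quality covariate described next, it called 30.

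RNA quality differed between the groups. The 3′ minus 5′ log2 difference of the Actb control probe sets, a measure of how far transcripts were copied or degraded from the 3′ end, was 1.31, 1.41 and 1.32 in the saline pools and 1.15, 0.76 and 0.79 in the ethanol pools. For Gapdh it was 0.21, 0.28 and 0.33 after saline and 0.10, 0.01 and 0.08 after ethanol. The groups did not overlap on either measure (two-sided exact permutation p = 0.1 for each, the smallest that 3 pools against 3 allow). With the Actb measure as a covariate, which was added once the data had been seen, 11 probe sets were called, all higher, and 10 of them were among the 99. The standard error rose in that fit from a median of 0.11 to 0.15, and all 99 kept their sign, at 0.45 to 1.39 times their difference. Among the Fyn-null pools, this measure and the treatment cannot be told apart.

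**Figure D1:**
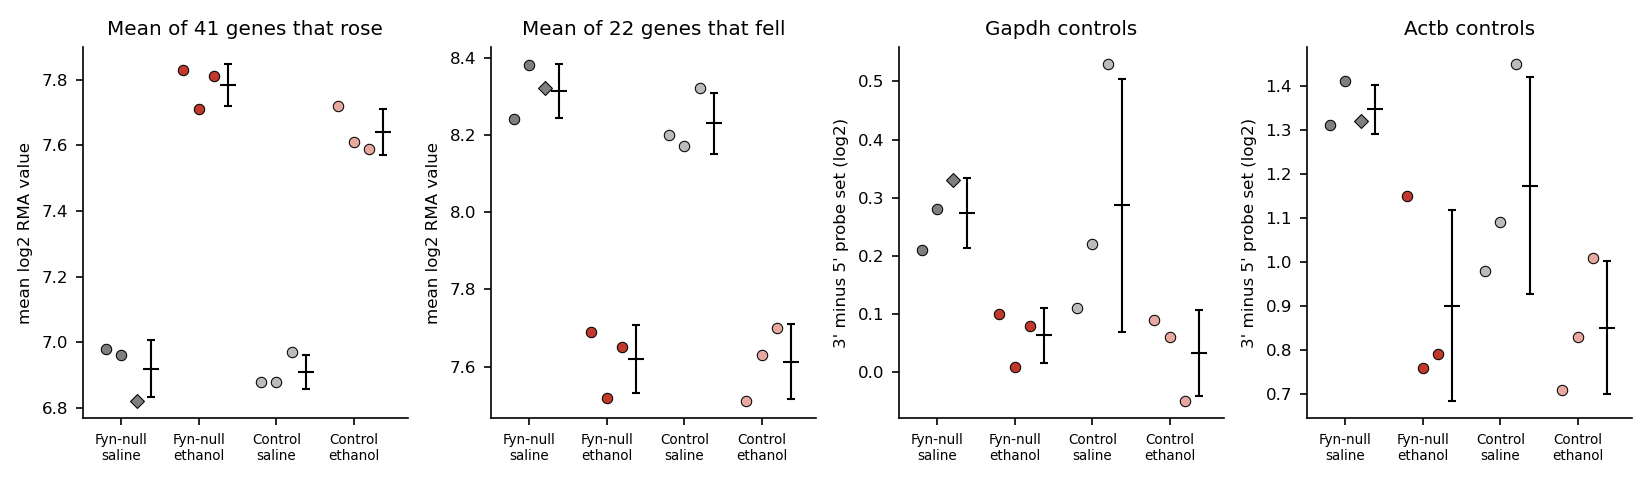
The first and second panels show, for each of the 12 pools, the mean log2 RMA value of the 41 genes that rose and of the 22 that fell in Fyn-null mice; the others show the 3′ minus 5′ log2 difference of the Gapdh and Actb control probe sets. Points are pools in order of replicate number, the diamond is the pool labelled Fyn-null saline replicate 4 and bars are mean ± SD (n = 3). In Fyn-null mice the ethanol pools lie apart from the saline pools in all 4 panels (for Actb, 0.76 to 1.15 against 1.31 to 1.41). In the first and second panels this follows from the choice of genes, which were called on these pools.

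Of the gene lists examined, the one induced by glucocorticoids had the most called genes. The lists and their members were chosen with earlier results of these data known, so their order and counts are a description and not a separate test. Of 27 glucocorticoid-induced genes listed, 24 were tested, 11 rose and 0 fell, against 0.333% of all genes that rose. The median difference of the 24 was 0.569 and 22 lay above 0, whereas 43.6% of all genes did. In 19 of them the ethanol pools were all above the saline pools. Without the pool labelled Fyn-null saline replicate 4, 6 remained called (Tsc22d3, Sgk1, Fkbp5, Pdk4, Angptl4 and Arrdc2) and the median was 0.559. With the Actb covariate Tsc22d3, Sgk1, Fkbp5 and Arrdc2 remained called, with a median of 0.561.

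Tsc22d3, which codes for the glucocorticoid-induced leucine zipper, was 8.64, 8.39 and 8.33 after saline and 9.83, 9.67 and 9.84 after ethanol. The lowest ethanol pool was thus about 1 above the highest saline pool. The difference of 1.32 (standard error 0.094, adjusted p = 5.48e-05) corresponds to 2.50-fold, and a second probe set of the gene rose by 1.43, while its other tested probe set had 0.31 and was not called. Fkbp5, a co-chaperone that restrains the glucocorticoid receptor, was 7.56, 7.76 and 7.81 after saline and 9.09, 8.87 and 9.02 after ethanol (1.28, standard error 0.13, adjusted p = 0.00104). Its groups were separated by more than their whole spread, and another probe set of Fkbp5 had 0.70 (adjusted p = 0.0836).

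Sgk1, the serum- and glucocorticoid-regulated kinase, was 8.22, 8.06 and 7.99 after saline and 9.14, 9.09 and 9.02 after ethanol, a difference of 1.00 (standard error 0.096, adjusted p = 0.000726). Among the 61 genes with a called probe set and a promoter in the RefSeq table (GRCm38.p6; 97 promoters), Sgk1 and Txnip were those with a match to the GRE core GNACANNNTGTNC, which reads the same on both strands and was found in 0.475% of all 32851 promoters. The fuller palindrome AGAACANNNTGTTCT, which contains the core, was found in 3 of all promoters, 1 of them of Sgk1. The 250 bases before the start site of these promoters, of Sgk1 (chr10:21993640-21993889, + strand) and of Txnip (chr3:96557707-96557956, + strand), are shown because they hold the letters of the core, which are in capitals. It begins 188 bases before the start site in Sgk1 and 172 bases before it in Txnip.
Sgk1: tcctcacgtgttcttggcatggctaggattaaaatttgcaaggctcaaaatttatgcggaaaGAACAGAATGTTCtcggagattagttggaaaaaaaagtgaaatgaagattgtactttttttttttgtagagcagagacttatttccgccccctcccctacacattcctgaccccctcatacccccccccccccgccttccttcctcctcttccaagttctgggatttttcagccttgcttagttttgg
Txnip: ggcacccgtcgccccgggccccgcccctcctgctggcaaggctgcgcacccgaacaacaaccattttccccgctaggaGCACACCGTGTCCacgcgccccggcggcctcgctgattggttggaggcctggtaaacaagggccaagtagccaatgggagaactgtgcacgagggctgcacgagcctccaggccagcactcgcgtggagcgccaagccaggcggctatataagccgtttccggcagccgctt

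Other members of this group rose by smaller amounts or from lower signals. Arrdc2, an alpha-arrestin, was 5.06, 5.25 and 4.84 after saline and 6.28, 6.12 and 6.30 after ethanol (1.19, adjusted p = 0.000323). Pdk4 and Angptl4, which turn cells from glucose to fat as fuel and restrain lipoprotein lipase, rose by 1.02 and 0.86. Cebpd, a transcription factor, rose by 1.08 (standard error 0.19, adjusted p = 0.029), and its saline pools were spread from 4.55 to 5.19. Mt2, a metal-binding metallothionein, rose by 0.69, Sult1a1, a sulfotransferase, by 0.66, Nfkbia, the inhibitor of NF-kappaB, by 0.57 and the transcription factor Klf9 by 0.53. Klf9 had another called probe set at 0.77, and a probe set of Nfkbia at 0.17 was not called.

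Some classical glucocorticoid targets were not called. Per1, a clock gene with a known GRE, was 7.84, 8.30 and 8.01 after saline and 7.88, 7.64 and 7.79 after ethanol, and the groups overlapped. Dusp1, a phosphatase of MAP kinases, was at -0.09 with overlapping groups. Mt1 (0.48, adjusted p = 0.082), Map3k6 (0.71, adjusted p = 0.0944) and Gjb6 (0.52, adjusted p = 0.108) had ethanol pools above all saline pools without passing the threshold. Ddit4, an inhibitor of mTOR complex signalling, was 7.77, 7.68 and 7.91 after saline and 9.10, 8.59 and 7.93 after ethanol, so that the ethanol pools were unequal (0.75, standard error 0.27). Of 7 genes for steroid receptors and their partners, 5 were tested and 0 were called.

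**Figure D2:**
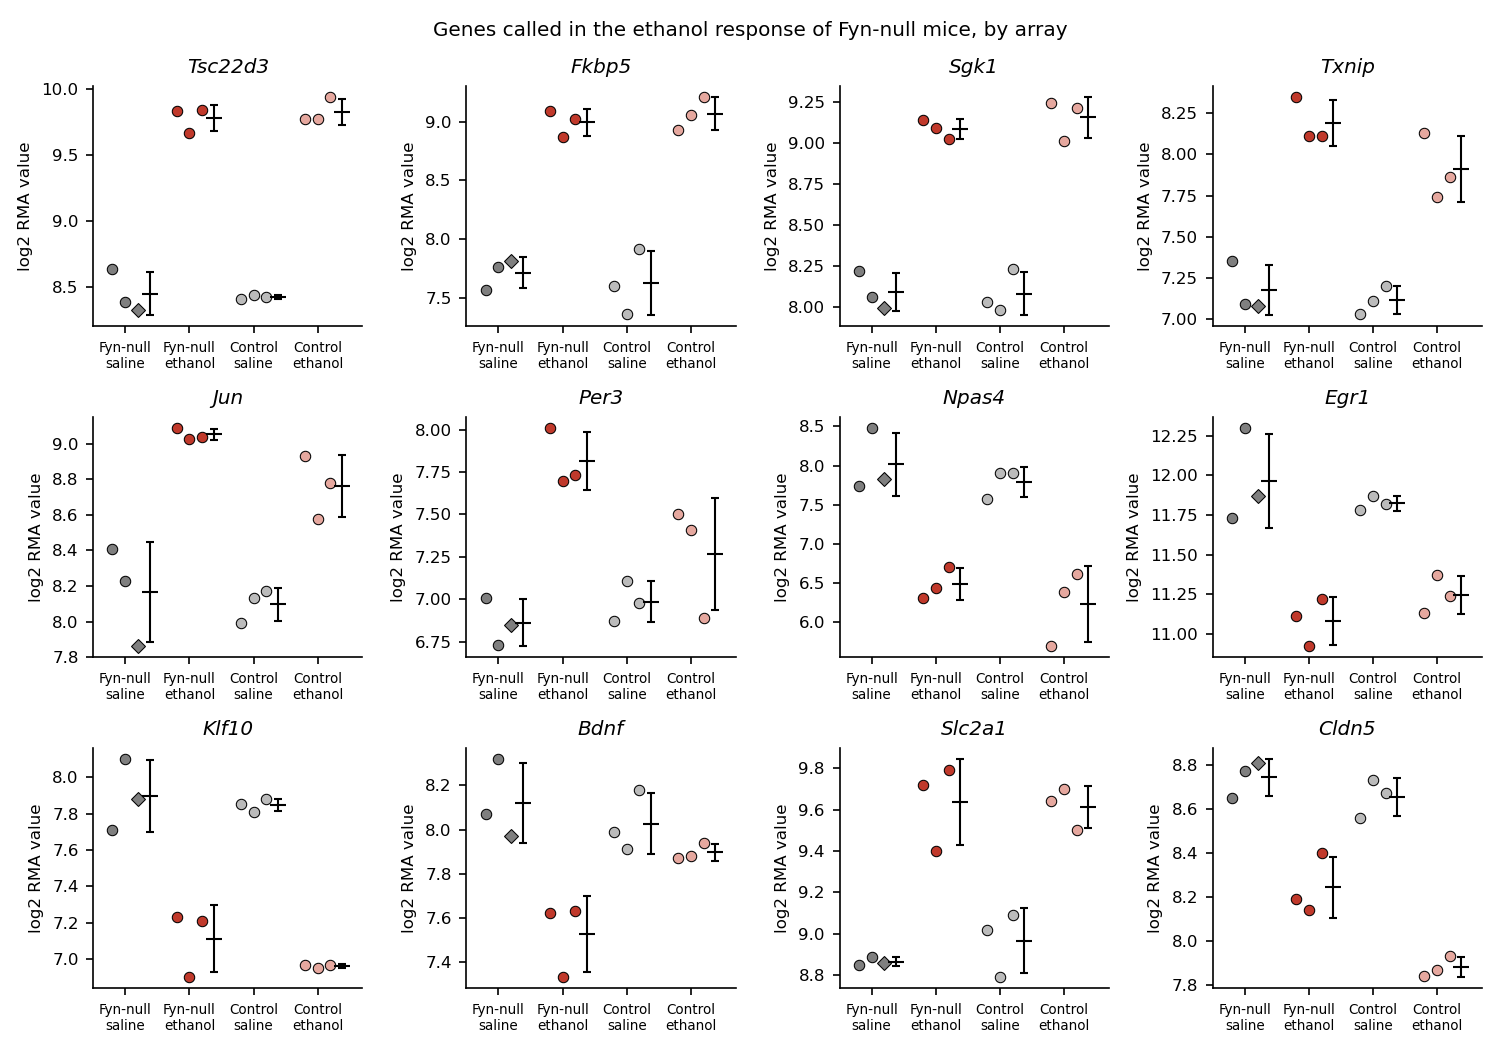
Log2 RMA values of 12 called genes in all 12 pools; points are single pools in order of replicate number, the diamond is the pool labelled Fyn-null saline replicate 4 and bars are mean ± SD (n = 3). In every panel the 3 Fyn-null ethanol pools lie wholly above (Tsc22d3, Fkbp5, Sgk1, Txnip, Jun, Per3, Slc2a1) or wholly below (Npas4, Egr1, Klf10, Bdnf, Cldn5) the 3 Fyn-null saline pools, while in control mice the groups of Bdnf (-0.13) and Per3 (0.28) overlap. The separation of the Fyn-null pools follows from the choice of genes, which were called on them.

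Most immediate early genes lay lower 4 h after ethanol, and few passed the test. Of 26 listed, 25 were tested, 3 fell (Npas4, Egr1 and Klf10) and Jun rose, against 0.179% and 0.333% of all genes. The median of the 25 was -0.256, and 4 lay above 0, whereas 43.6% of all genes did. Without the pool labelled Fyn-null saline replicate 4 the same 4 genes were called, and the median was -0.201. With the Actb covariate 0 were called, and the median was -0.103.

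Npas4, a transcription factor induced by calcium entry in active neurons, was 7.74, 8.48 and 7.83 after saline and 6.31, 6.44 and 6.71 after ethanol. All ethanol pools were about 1 or more below the lowest saline pool. The gene fell by 1.52 (standard error 0.23, adjusted p = 0.0154), the largest called fall, with 2.88-fold more signal after saline. Egr1, a zinc-finger factor, was 11.73, 12.30 and 11.87 after saline and 11.11, 10.92 and 11.22 after ethanol (-0.88, adjusted p = 0.0143). Klf10, a factor induced by TGF-beta, fell by 0.79 (adjusted p = 0.00782).

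Jun, a subunit of the AP-1 transcription factor, went the other way. It was 8.41, 8.23 and 7.86 after saline and 9.09, 9.03 and 9.04 after ethanol (0.88, standard error 0.13, adjusted p = 0.0118), and its other tested probe set rose by 1.03. Its partner Fos was 8.78, 9.76 and 9.05 after saline and 8.22, 8.06 and 8.51 after ethanol (-0.94, adjusted p = 0.0746). The AP-1 genes Jun and Fos thus stood on opposite sides of the saline pools, although Fos did not pass the threshold. Dusp6 (-0.81, adjusted p = 0.0525) and Egr2 (-1.35, adjusted p = 0.11) also had ethanol pools below all saline pools, whereas Arc, whose product acts in receptor endocytosis, had overlapping groups (8.84, 10.42 and 9.87 after saline, 8.48, 8.32 and 8.90 after ethanol).

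The saline pools themselves varied in these genes. Fyn-null saline replicate 3 was the highest of the 6 pools for 19 of the 25, and Fyn-null ethanol replicate 2 was the lowest for 13. Without saline replicate 3, Jun, Egr1 and Klf10 were called and Npas4 was not, and without ethanol replicate 1 or ethanol replicate 2 only Klf10 was. Without saline replicate 2, Arc, Fos and Egr2 were called too, and the median of the list was -0.413. The cyclic AMP response element TGACGTCA reads the same on both strands and is a common motif of activity-dependent promoters. It matched in 1.79% of all promoters and in 2 of 97 promoters of genes with a called probe set, those of Flt1 and Gm3764. Egr1 and Klf10 have no entry in the promoter table.

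Of 22 listed genes that follow neuronal activity later, 21 were tested, with a median of -0.228, and 1 was called, a fall (0.179% of all genes). In 10 of the 21 the ethanol pools were all below the saline pools (11.4% of all genes), and in 1 they were all above (7.13% of all genes). The called gene was Bdnf, the brain-derived neurotrophic factor, at 8.07, 8.32 and 7.97 after saline and 7.62, 7.33 and 7.63 after ethanol. It fell by 0.60 (standard error 0.11, adjusted p = 0.0495), and its other tested probe set had -0.61 (adjusted p = 0.0628). The call of Bdnf was lost when any one of the Fyn-null pools was left out (adjusted p = 0.0593 to 0.197, log2 difference -0.67 to -0.50), when any control pool but saline replicate 3 was left out, and with the Actb covariate (-0.38, adjusted p = 0.571). In control mice Bdnf had -0.13, and the responses differed by -0.47 (standard error 0.16, unadjusted p = 0.0127, adjusted p = 0.992).

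Bdnf belongs to 5 genes that the study names for ethanol in PFC, a set chosen on these samples. The others tested were Kcnma1 of the large-conductance calcium-activated potassium channel (0.46, adjusted p = 0.121), the synaptic vesicle protein gene Syp (-0.32, adjusted p = 0.298) and the kinase gene Camkk2 (0.40, adjusted p = 0.432). Kcnma1 had ethanol pools (9.03, 8.94 and 9.05) above all saline pools (8.83, 8.34 and 8.48), but its other probe sets lay between -0.36 and 0.60. Of 32 genes in the ethanol network of the study, 30 were tested and 0 were called in Fyn-null mice, where 0.333% of all genes rose and 0.179% fell. The study chose that network on another measure, S-scores, for responses that differed between the genotypes. It also required correlation with Fyn and with the loss of righting reflex in recombinant inbred strains. A response within Fyn-null mice was thus not what the network was chosen for.

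**Figure D3:**
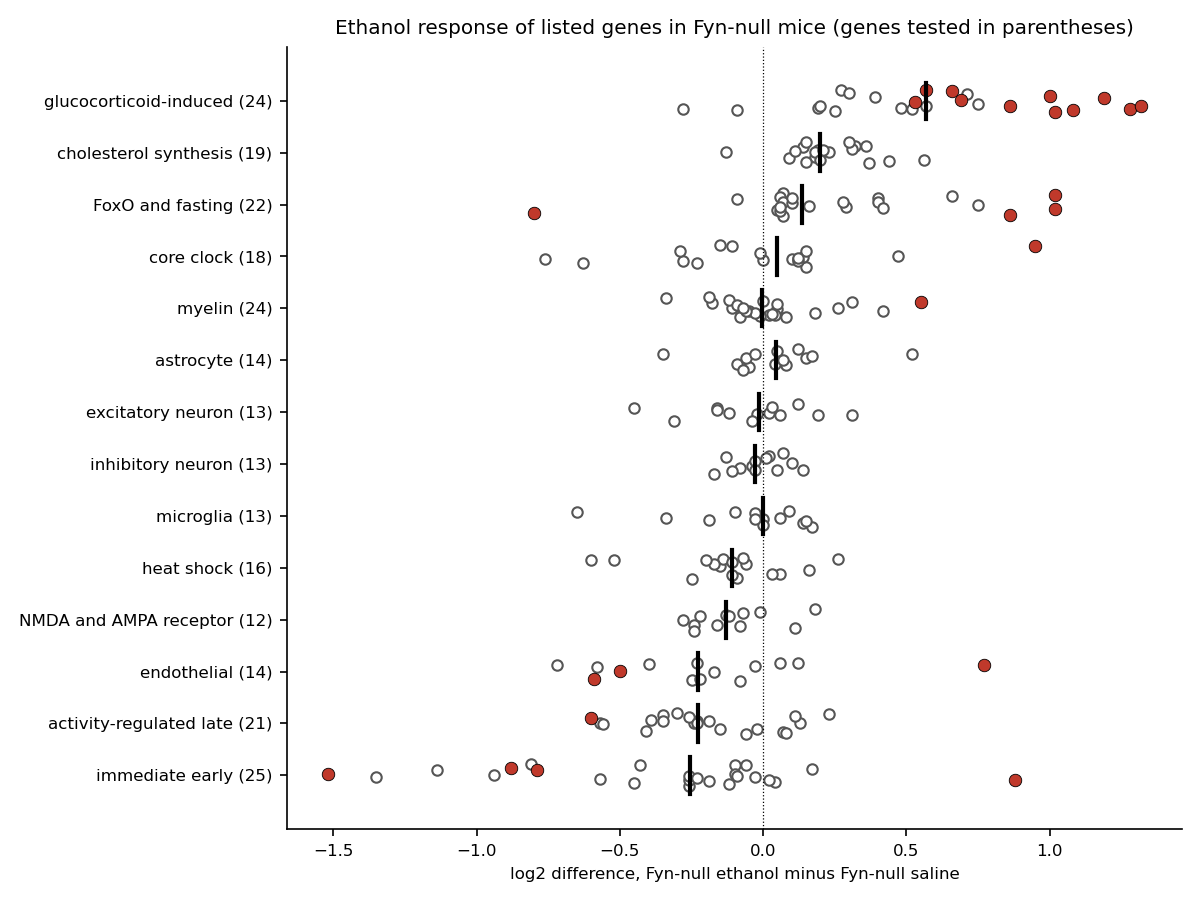
Log2 difference, ethanol minus saline in Fyn-null mice, of each tested gene of 14 lists; filled points are called genes (adjusted p under 0.05, limma), open points are not called and black bars are medians. Glucocorticoid-induced genes lie furthest to the right (median 0.569, 11 called) and immediate early genes furthest to the left (median -0.256, 3 called lower and Jun higher). The lists were chosen with earlier results of these data known.

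Genes of fasting and of the FoxO transcription factors, which insulin signalling restrains, had a smaller median. Of 24 listed, 22 were tested, Txnip, Pdk4 and Angptl4 rose and Trib2 fell, against 0.333% and 0.179% of all genes. The median was 0.134 and 20 lay above 0, whereas 43.6% of all genes did. Fyn-null ethanol replicate 1 was the highest of the 6 pools for 17 of the 22. Pdk4 and Angptl4 are on the glucocorticoid list too. Without the pool labelled Fyn-null saline replicate 4, the median was 0.238, the 3 rises remained called and Trib2 (-0.71, adjusted p = 0.0804) did not. With the Actb covariate 0 were called, at a median of 0.234.

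Txnip, which binds thioredoxin and restrains glucose uptake, was 7.35, 7.09 and 7.08 after saline and 8.35, 8.11 and 8.11 after ethanol (1.02, standard error 0.12, adjusted p = 0.00233). The pools of each treatment kept to a narrow range. Slc2a1, the glucose transporter of brain endothelium, rose in all 3 of its called probe sets, by 0.77 to 0.86. Pik3ip1, an inhibitor of phosphatidylinositol 3-kinase, rose by 0.88. Insulin receptor pathway genes on the list were near 0, with Insr at 0.10, Irs1 at 0.05, Irs2 at 0.07 and Foxo1 at 0.06. The FoxO motif TGTTTAC, searched on both strands, was found in 3.65% of all promoters. It was found in 3 of 97 promoters of genes with a called probe set, those of Txnip, Klf9 and Cckbr.

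Called endothelial genes lay in both directions. Of 17 listed, 14 were tested, Slc2a1 rose and Cldn5 and Slco1a4 fell, against 0.333% and 0.179% of all genes, with a median of -0.226. Without the pool labelled Fyn-null saline replicate 4, Slc2a1 alone was called and the median was -0.271. With the Actb covariate 0 were called, and the median was -0.0413. In bulk tissue, fewer cells of a type and less RNA per cell cannot be told apart.

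Cldn5, the claudin of endothelial tight junctions, was 8.65, 8.77 and 8.81 after saline and 8.19, 8.14 and 8.40 after ethanol (-0.50, adjusted p = 0.0312). Slco1a4, an organic anion transporter of brain vessels, fell by 0.59 (adjusted p = 0.0151), and Slco1c1, which carries thyroid hormone across them, fell by 0.61 (adjusted p = 0.017). Jcad, a protein of endothelial junctions, fell by 0.59. The receptor genes Kdr (-0.58, adjusted p = 0.0628) and Tek (-0.72, adjusted p = 0.159) had ethanol pools below all saline pools but were not called, while Pecam1 (-0.03) and Esam (0.06) had overlapping groups. Flt1, Nrp1, Ets1 and Cxcl12 were picked from the falls after their values were seen, and each had 1 called probe set, at -0.71, -0.73, -0.85 and -0.73. Other probe sets of these genes were not called (-0.45 and -0.40 for Flt1, -0.61 to -0.28 for Nrp1, -0.32 and -0.11 for Ets1 and -0.17 for Cxcl12). Slco1c1, Jcad, Nrp1, Ets1 and Cxcl12 are not on the list, so their shared direction follows from how they were picked. Genes outside the list were also called as rises, Plat (0.94) and Cavin2 (0.67) among them.

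Few markers of other cells were called, and over all genes 0.333% rose and 0.179% fell. Of 14 astrocyte, 13 microglia, 13 inhibitory neuron and 9 oligodendrocyte precursor genes tested, 0 were called, with medians of 0.046, -0.002, -0.028 and -0.010. Of 24 myelin genes, Mal, a proteolipid of compact myelin, rose by 0.55 (adjusted p = 0.0175), while the median was -0.003. The other tested probe set of Mal was at 0.49 and was not called (adjusted p = 0.198). The call of Mal was lost without any one of the Fyn-null pools except saline replicate 4. It was also lost in the replicate block, when only the groups compared were fitted, and with the Actb covariate. Mobp, another myelin gene, had a probe set that rose by 1.15, but the brightest of its probe sets was at 0.02. Of the core clock, Per3 was called among 18 tested genes, at 7.01, 6.73 and 6.85 after saline and 8.01, 7.70 and 7.73 after ethanol (0.95, adjusted p = 0.0176). Its other probe sets were at 0.14, 0.40 and 0.27 and were not called. The call of Per3 was lost without any one of the Fyn-null pools except saline replicate 2 (adjusted p = 0.0614 to 0.0937, log2 difference 0.85 to 1.00), in the replicate block (adjusted p = 0.109) and with the Actb covariate (adjusted p = 0.364). Per2 was at -0.76 (adjusted p = 0.0765).

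No member was called in the lists of glutamate receptors (12 tested, median -0.128), GABA-A receptors (9 tested, median -0.045), postsynaptic scaffolds (11 tested, median -0.078), potassium channels (27 tested, median 0.024) or Src family kinases (3 tested, median -0.116). The same held for genes of alcohol metabolism and oxidation (11 tested, median 0.022), targets of NRF2 (12 tested, 0.017), heat shock proteins (16 tested, -0.109) and the unfolded protein response (20 tested, -0.065). Hspb1, a small heat shock protein, was nearest to the threshold (-0.60, adjusted p = 0.0574). Gabrb2 had a called probe set at 0.86 against 0.03 to 0.07 in its other 4 probe sets. Nfkbia was the called gene among 6 tested inflammation genes, and 11 others were below the filter. Serpina3n, an acute phase gene of astrocytes, was 6.15 and 6.04 in Fyn-null saline replicates 2 and 3, 8.81 in the pool labelled saline replicate 4, and 6.23, 6.39 and 6.33 after ethanol.

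Genes of cholesterol synthesis lay mostly above 0, and 0 were called. Of 19 tested, 18 lay above 0 (43.6% of all genes), with a median of 0.198 and 10 with ethanol pools above all saline pools (7.13% of all genes). The largest was Sc5d, at 8.20, 7.93 and 7.21 after saline and 8.45, 8.30 and 8.28 after ethanol (0.56, adjusted p = 0.399). The pool labelled Fyn-null saline replicate 4 was the lowest of 6 pools for 9 of the 19, and without it the median was 0.177. In control mice the median of these genes was -0.081 and 4 lay above 0 (34.3% of all genes there). The difference between the lists was not tested as a list, and for Mvd, which codes for mevalonate diphosphate decarboxylase, the responses of 0.36 and -0.12 differed at an unadjusted p = 0.0125 (adjusted p = 0.992).

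The remaining large rises belonged to no list. Gm19439 was 5.27, 5.37 and 5.47 after saline and 7.15, 7.06 and 7.14 after ethanol, the largest called rise (1.74, standard error 0.089, adjusted p = 3.18e-06). Trp53inp1, induced by p53, rose by 1.28, the desmosomal plakophilin gene Pkp2 by 1.25 and the chromatin protein gene Hmgb2 by 1.19. Each had ethanol pools all above the saline pools. This probe set of Hmgb2 can bind related transcripts, and the gene's other tested probe set was also called (1.05, adjusted p = 0.0119). Smim3 rose by 1.04, Alox12b, a lipoxygenase, by 1.01, Aff1 of the super elongation complex by 0.97 and Spsb1 by 0.96. The tissue plasminogen activator gene Plat rose by 0.94. Other probe sets of Spsb1 (0.15 and 0.34) and Plat (-0.09) were not called.

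Among the falls outside the lists, Kcnv1, which codes for a silent subunit of voltage-gated potassium channels, was 8.89, 8.78 and 8.65 after saline and 7.81, 7.60 and 7.69 after ethanol. It fell by 1.08 (standard error 0.13, adjusted p = 0.00268), and its other called probe set fell by 0.62. St8sia4, which adds polysialic acid to the neural cell adhesion molecule, fell by 0.76, Nwd2 by 0.71, P4ha1, a subunit of collagen prolyl hydroxylase, by 0.68, Gm3764 by 0.67, Trbv1 by 0.66, Prdm15 by 0.64 and Phlda1 by 0.61. Other probe sets of P4ha1 (-0.19), Gm3764 (0.04) and Trib2 (-0.29) were not called. The probe set of Trbv1 is of a kind that can bind related transcripts, so its source is uncertain. Without the pool labelled Fyn-null saline replicate 4, St8sia4, Nwd2, P4ha1, Gm3764, Prdm15, Phlda1 and Jcad were not called, with differences of -0.72 to -0.56. The E-box CACGTG, which reads the same on both strands, matched in 7.15% of all promoters. It matched in 8 of 97 promoters of genes with a called probe set, from 7 genes, 3 that rose and 4 that fell.

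The same treatment in control mice, measured on 6 other arrays, served as the comparison. There 355 probe sets were called (1.43%), between 76 and 410 when 1 array at a time was left out. Of these, 65 were also called in Fyn-null mice, which is 65.7% of the Fyn-null calls and 18.3% of the control calls. All 99 probe sets called in Fyn-null mice had the same sign in control mice, and 92 of them had control groups that did not overlap in the same direction, against 6.77% of all probe sets with ethanol above and 16.3% with ethanol below. Over all probe sets tested, 66.5% had the same sign in both genotypes. The control pools differed in RNA quality in the same direction. Their Gapdh measure was 0.11, 0.22 and 0.53 after saline and 0.09, 0.06 and -0.05 after ethanol. For Actb it was 0.98, 1.09 and 1.45 after saline and 0.71, 0.83 and 1.01 after ethanol, with overlapping groups. With the Actb covariate, 18 probe sets were called in control mice. What part of the shared signs goes with RNA quality was not tested. Tsc22d3 (1.32 in Fyn-null and 1.40 in control mice), Sgk1 (1.00 and 1.07) and Npas4 (-1.52 and -1.57) differed between the genotypes by less than the standard error of the difference. Over all 12323 genes, Pearson's r between the responses was 0.55, a description across genes, which are not independent replicates.

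**Figure D4:**
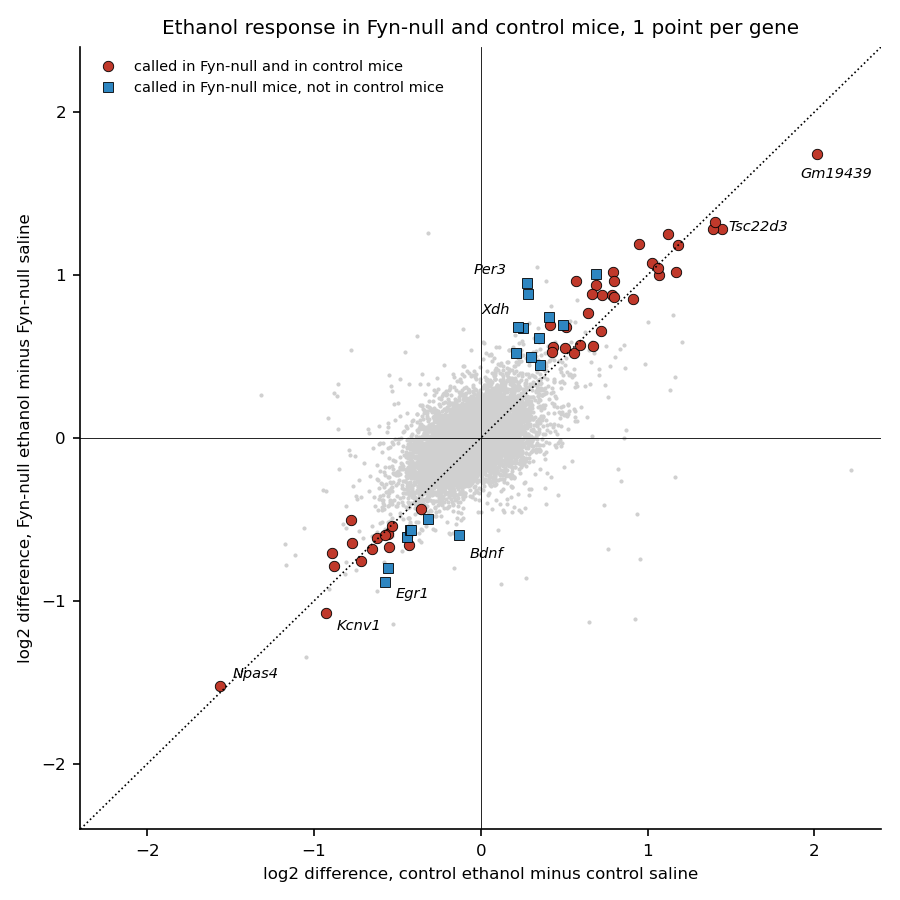
Log2 difference, ethanol minus saline, in control mice (horizontal) and in Fyn-null mice (vertical), with 1 grey point per gene tested (n = 12323); red circles are genes called in both genotypes (45), blue squares are genes called in Fyn-null mice and not in control mice, and the dotted line marks equal responses. All called genes share their sign in both genotypes, and Bdnf, Per3 and Xdh lie among those furthest from the line.

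No probe set was called in the test of the difference between the responses (0.00%, smallest adjusted p = 0.992). At an unadjusted p under 0.05 there were 1023 (4.13%). Of the 99 probe sets called in Fyn-null mice 14 were among these, 12 of them with the larger response in Fyn-null mice, a direction that follows in part from their having been called there. The smallest p among them were those of Xdh, which codes for xanthine dehydrogenase (0.88 in Fyn-null and 0.28 in control mice, difference 0.60, standard error 0.16, unadjusted p = 0.0026), of a probe set without a single gene symbol that had a smaller response in Fyn-null mice (0.74 and 1.38, difference -0.65, unadjusted p = 0.00597), and of Per3 (0.95 and 0.28, difference 0.67, unadjusted p = 0.00804). Cldn5 was the named gene with the smaller response in Fyn-null mice (-0.50 and -0.78, unadjusted p = 0.0445). The median standard error of a difference between responses was 0.15, and differences as large as that of Pyroxd2, given next, did not pass adjustment with 3 pools per group.

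The 10 genes or probe sets with the smallest p in this test were led by Pyroxd2 (0.27 in Fyn-null and -0.88 in control mice, unadjusted p = 5.3e-05), followed by Washc3 (0.09 and -0.48), Cdk12 (0.39 and -0.19) and Sdha (0.52 and -0.28). Mamdc2 had 0.06 and -0.68, and Mctp1 had 0.05 and 0.87. None of these was called in Fyn-null mice, and none passed adjustment. In this set of 10, 9 had a higher value in Fyn-null than in control mice, and Mctp1 was the exception. Over all probe sets tested, the median difference of the responses was also above 0, at 0.033. These values rest on the labels as given, with both saline pools whose genotype is in doubt.

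**Figure D5:**
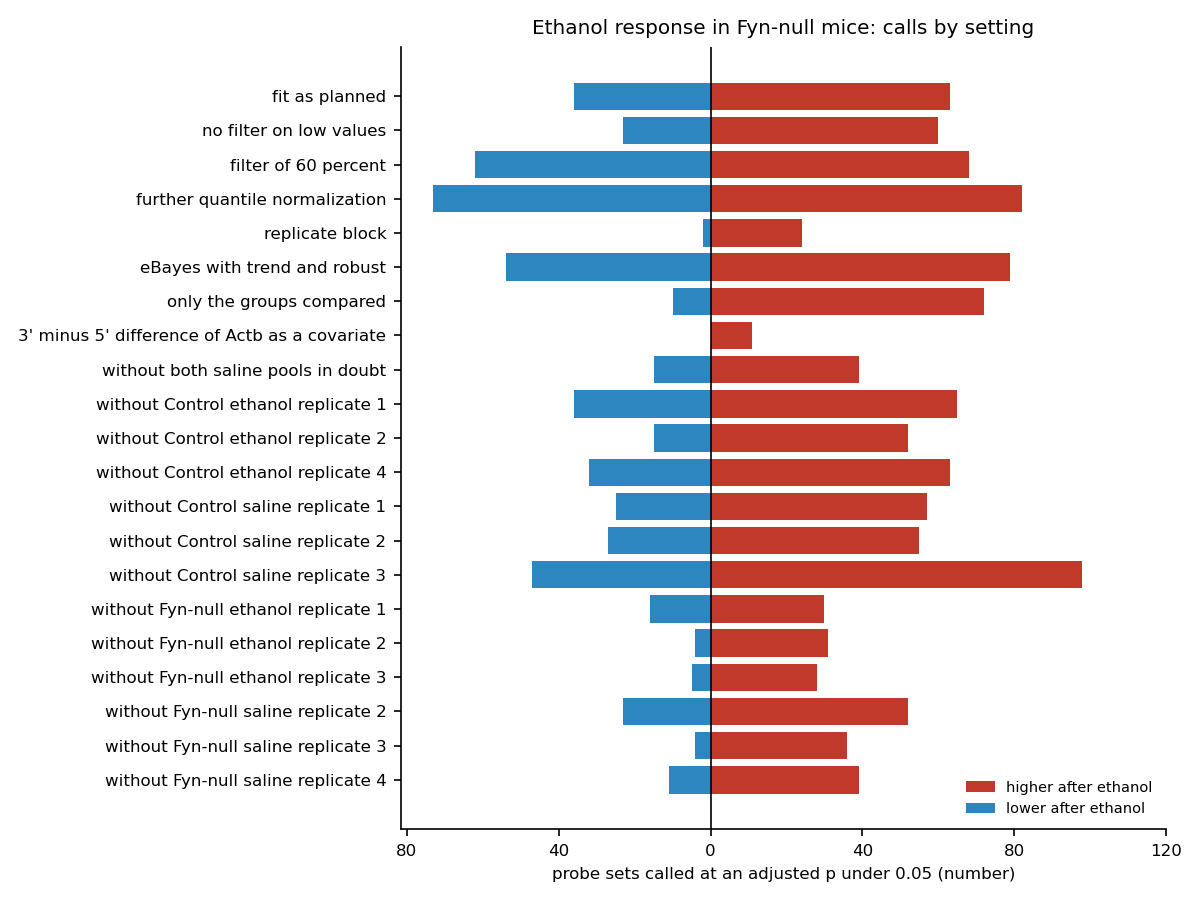
Number of probe sets called in the ethanol response of Fyn-null mice in each setting, higher after ethanol to the right and lower to the left; the fit with array weights (2781 calls) is left out because of its size. The fit as planned gave 63 and 36, the replicate block 24 and 2, and the Actb covariate 11 and 0.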

How the data were processed

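The authors' deposited table holds log2 RMA values of 45101 probe sets for 12 arrays, made with the affy package per the labels; the sources used here give neither a version nor whether a batch step was applied. Control probe sets (64) and the 45% of the rest with the lowest mean (under 5.146) were left out. Probe sets were named by the platform annotation (34958 with 1 symbol, 932 with several, 9211 with none). limma 3.58.1 in R 4.3.3 fitted 4 group means (lmFit, eBayes) over all arrays, and p-values were adjusted by Benjamini-Hochberg over 24770 probe sets. The fit was tested on simulated data. Genes were named by rule: from the called genes with separated groups, the 15 largest rises and falls, up to 4 members per list by p, all probe sets of Fyn, genes the study names, and the 10 smallest p of the difference; remaining names, such as further list members, were picked with their values known. The members and the 33 gene lists were chosen with earlier results of these data known, and lists were described by counts and medians without a set test. Replicates are pools labelled as separate, so p-values measure the spread between these pools. The number of arrays limits the precision. Promoter sequences are RefSeq's.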

Additional observations from a re-analysis of the deposited data

How the results depend on the processing

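The replicate block, with numbers that do not pair the pools (residual correlations of same-numbered pools -0.43 to 0.32), gave 26 calls in Fyn-null mice, 36 in control mice and 710 over both genotypes, and 6 glucocorticoid-induced, 2 immediate early, 2 FoxO and 0 endothelial genes. It changed no sign among the 99 probe sets. With the Actb 3′ minus 5′ covariate, added after the data were seen, the calls were 11, 18 and 30, with 4, 0, 0 and 0 in these lists, and medians of 0.234 (FoxO), -0.0871 (activity-regulated late), -0.111 (myelin) and -0.0413 (endothelial). Array weights gave 2781 calls in Fyn-null mice and 3854 over both genotypes, 8 immediate early, 9 FoxO and 7 endothelial genes and a myelin median of 0.0614; their estimation stopped before converging and gave Fyn-null ethanol replicate 3 a weight of 10.32. Fitting only the groups compared gave 82 calls in Fyn-null mice (72 higher), 18 in control mice and 2 immediate early genes. Quantile normalization gave 155 calls in Fyn-null mice. Without both saline pools in doubt there were 54 and 147 calls, 6 glucocorticoid-induced genes, 1 endothelial gene and a FoxO median of 0.238. Averaging a gene's probe sets gave 7 FoxO and 5 endothelial genes.

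Leaving out 1 array at a time gave 33 to 145 calls in Fyn-null mice, 76 to 410 in control mice (76 without control saline replicate 3, 87 and 104 without control ethanol replicates 1 and 2, 120 and 195 without control saline replicates 2 and 1, 177 without Fyn-null ethanol replicate 3, 224 without Fyn-null saline replicate 2) and 770 to 1625 over both genotypes. Called genes numbered 5 to 11 (glucocorticoid-induced), 1 to 7 (immediate early), 2 to 5 (FoxO) and 1 to 3 (endothelial), and medians were -0.413 to -0.193 (immediate early), 0.118 to 0.238 (FoxO), -0.281 to -0.157 (endothelial) and -0.0356 to 0.093 (genes the study names). The filter of 60% gave 130 calls (68 higher, 62 lower) and no filter 83. The difference of the responses had 0 calls in each setting run. Of 3192 comparisons of named probe sets with an alternative, 201 lost the call, 59 gained it and 0 of the called ones changed sign. With 1 pool left out, the sign of the called ones was fixed by their separated groups.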

Other observations

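Without the filter on low values, 10 probe sets below it were called in Fyn-null mice. They include Etnppl, an enzyme of phosphoethanolamine breakdown in astrocytes (1.66, adjusted p = 0.0271, mean level 4.35), both probe sets of Tcim (0.88 and 1.08), Kcna5 (0.77) and Ackr2 (0.62) among the rises, and the endothelial receptor gene Tie1 (-0.61), Nkx2-2 (-0.76) and Cobll1 (-0.74) among the falls. These genes were named after their values were seen.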
